A study of Mus musculus with 4 samples.

Results

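The genes described here are 45 members of the Polycomb and trithorax groups, whose proteins write, read and erase histone marks that keep genes off or on. They were taken by symbol from a table of expression values for 53379 genes in small intestinal group 3 innate lymphoid cells (ILC3s) of mice that had or lacked Brg1. Each of the 45 symbols was found once, and all 45 genes passed the filter on low values. Phf19 and Cbx2 passed it through the mean of 1 group alone. Brg1, encoded by Smarca4, is an ATPase of the SWI/SNF chromatin remodelling complexes. The question was whether its loss from ILC3s went with altered RNA levels of this second set of chromatin regulators.

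Polycomb repressive complex 2 (PRC2) methylates histone H3 at K27, and Polycomb repressive complex 1 (PRC1) ubiquitinates histone H2A and compacts chromatin at silent developmental genes. Trithorax group proteins of the KMT2 (MLL) family methylate histone H3 at K4 and oppose this silencing, as SWI/SNF complexes do in flies and mammals. In lymphocytes these complexes are known for holding the genes of alternative lineages and cytokines silent and for restraining the Cdkn2a locus in dividing cells.

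RNA sequencing compared 2 libraries of Brg1-sufficient with 2 libraries of Brg1-deficient ILC3s from small intestinal lamina propria lymphocytes of mixed bone marrow chimeras. Donor marrow of Rag1-/-Smarca4f/f mice carrying Thy1.2 gave the Brg1-sufficient cells, sorted as Thy1.2-high, Thy1.1-negative and CD45-low. Donor marrow of Rag1-/-Smarca4f/f mice that also carried a Cre transgene, with Thy1.1 and Thy1.2, gave the Brg1-deficient cells, sorted as Thy1.2-high, Thy1.1-positive and CD45-low. Marrow of both donors went in equal numbers into irradiated Rag2-/-Il2rg-/- recipients, which were analysed 6 to 7 weeks later. Both donors lacked Rag1 and carried the floxed Smarca4 allele, so the groups differed in the Cre transgene and in the Thy1 marker. The ages of the mice and the number pooled per library are not given in the sources used here.

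The deposited values were in FPKM, fragments per kilobase of transcript scaled to the mapped total, from which the depth of a library cannot be read. Paired values below give libraries 1 and 2 of a group in that order. Smarca4 was at 17.1 and 16.7 FPKM with Brg1 and at 9.98 and 9.03 FPKM without it (log2 fold change -0.77, adjusted p = 0.153 by limma). The Brg1-deficient libraries were lower without overlap for this gene, the direction the labels give. As 20.2% of all genes tested were lower without overlap, this is a weak check of the labels. All 13 genes of a list of ILC3 markers passed the filter on low values, 2 of them lower and 2 higher at an unadjusted p under 0.05 in limma. Marker lists named for other cells differed between the groups as well. The study states that Rag1-/- mice lack T and B cells. It also states that NKp46+ ILC3s express T-bet (Tbx21) and interferon gamma (Ifng), so these lists are not exclusive to other cells. Summed FPKM of 8 T cell genes was 105 and 56.4 in the Brg1-sufficient libraries against 30.4 and 33.4 in the Brg1-deficient libraries, and 5 of 6 tested were lower at an unadjusted p under 0.05. Summed FPKM of 8 ILC2 genes was 314 and 199 against 115 and 140, with 4 of 7 tested lower and 1 higher at that threshold. Summed FPKM of 8 epithelial genes was 4.97 and 6.77 against 20.4 and 17. Of the 3 tested, Krt8 and Krt18 were higher at that threshold and Epcam was lower without overlap (1.5 and 1.79 against 0.68 and 0.54 FPKM). Summed FPKM of 10 ILC1 and NK cell genes was 186 and 358 against 487 and 275, with 5 of 8 tested lower and 1, Gzma, higher. Of the B cell list 1 of 1 tested was lower, of the myeloid list 1 of 7, and of the stromal list 0 of 3 differed at that threshold. No gene of these lists was at 0 in all libraries, and the part of such cells in the results below was not tested except where a value is given.

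Loss of Brg1 went with small differences across the Polycomb and trithorax genes, and 0 of 45 passed an adjusted p of 0.05 in limma. Over the 14739 genes tested, 0.224% passed that threshold as lower and 0.0814% as higher. At an unadjusted p under 0.05, Aebp2, an accessory subunit of PRC2, was lower and Kdm2b, which recruits a variant PRC1 to CpG islands, was higher. That is 1 of 45 genes in each direction (2.22%), where 6.47% of all genes tested were lower and 6.12% higher by the same rule. Aebp2 and Kdm2b were also the members that met the broader criteria the study states for its gene list, an unadjusted p under 0.05, an adjusted p under 0.4, a mean above 5 FPKM in either group and a ratio of means beyond 0.5 on the log2 scale. Those criteria took 4.37% of all genes tested as lower and 3.85% as higher. Which members passed an unadjusted p under 0.05 changed when a library was left out, and the count over all genes changed as well. Over these omissions the log2 fold change of Aebp2 ran from -0.80 to -0.34 and that of Kdm2b from 0.49 to 0.59.

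The median log2 fold change of the 45 genes was 0.0066, beside 0.028 over all genes tested, with 22 members below and 23 above 0. The median size of the difference was 0.17 on the log2 scale for the members and 0.25 for all genes tested. The log2 fold changes ran from -0.65 for Pcgf5 to 0.79 for Phf19, and 0 members lay beyond 1 in size, against 7.98% of all genes. That count became 1 in 3 of the alternatives, through Phf19 with a pseudocount of 0.1 or without Brg1-sufficient library 1 and through Pcgf5 without Brg1-sufficient library 2. Beyond 0.5 in size lay 5 members (11.1%), against 25.4% of all genes. The 95% interval of the log2 fold change lay wholly between -1 and 1, a 2-fold change of FPKM + 1 either way, for 32 of 45 members (71.1%), beside 57.2% of all genes tested. For genes near 1 FPKM these limits allow more than a 2-fold change in FPKM itself. The mean FPKM of Phf19 without Brg1 was 235% of that with Brg1. The 13 members whose interval reached further were Eed, Aebp2, Phf1, Phf19, Ring1, Bmi1, Pcgf1, Pcgf5, Cbx2, Cbx6, Cbx7, Rybp and Ash2l. For these genes a 2-fold change lay within the interval that 2 libraries per group allow.

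**Figure D1:**
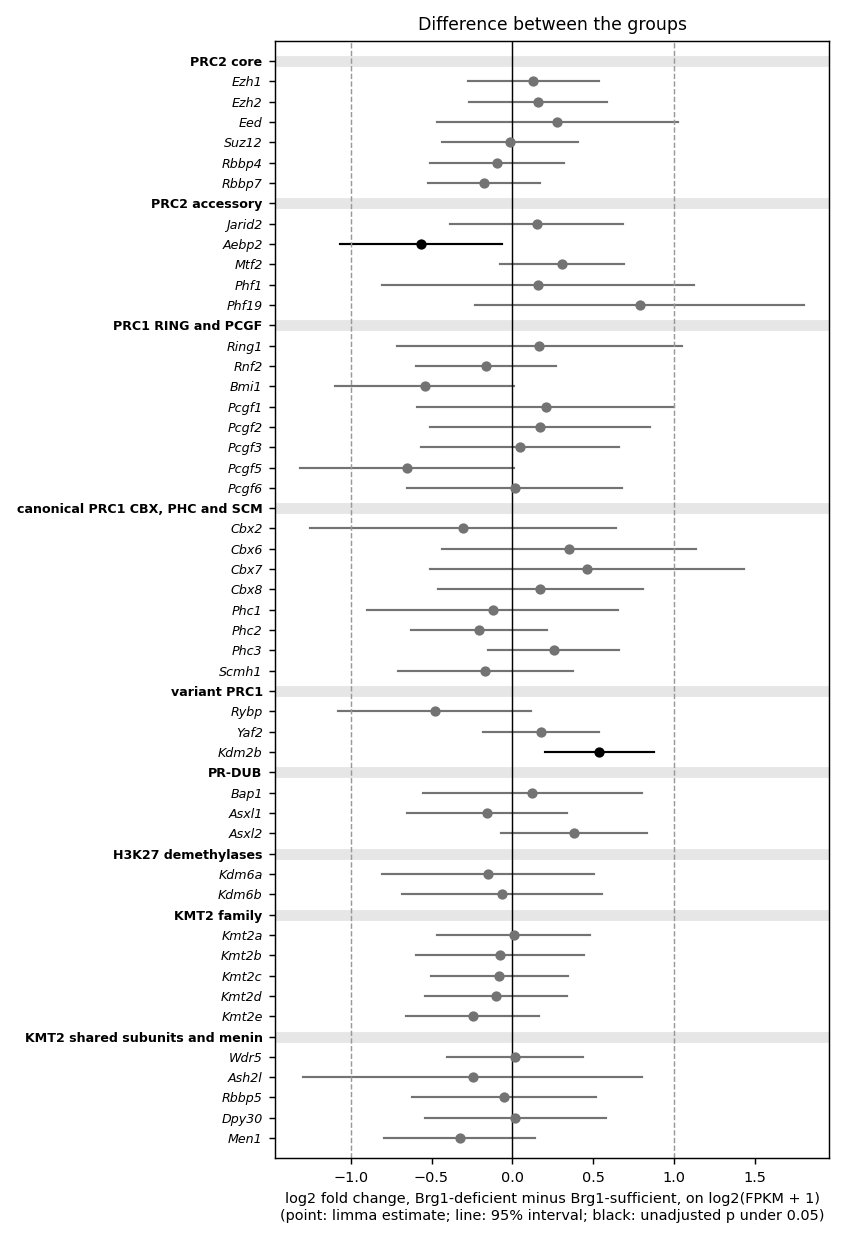
Log2 fold change (Brg1-deficient minus Brg1-sufficient, x axis, on log2(FPKM + 1)) of the 45 genes, ordered by complex on the y axis, with points for the limma estimate, lines for its 95% interval and dashed lines at -1 and 1. The intervals of Aebp2 and Kdm2b, drawn in black, leave out 0, and 32 of 45 intervals lie between the dashed lines.

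Both libraries of one group lay beyond both of the other for 15 members. Lower without overlap in the Brg1-deficient libraries were 9 genes (20% of members, 20.2% of all genes tested), namely Rbbp7, Aebp2, Bmi1, Pcgf5, Phc2, Rybp, Asxl1, Kmt2e and Men1. Higher without overlap were 6 genes (13.3% of members, 24.4% of all genes tested), namely Mtf2, Phf19, Phc3, Yaf2, Kdm2b and Asxl2. With 2 libraries against 2, the smallest p of an exact permutation test on 1 gene is 0.33.

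These genes spanned more than 2 orders of magnitude in level, from Cbx2 at a mean of 1 FPKM over the 4 libraries to Kdm6b at 170.2 FPKM. FPKM is a level per transcript length, so genes can be set side by side on it. The next highest means were those of Rbbp4 (124 FPKM), Rbbp7 (115 FPKM) and Kmt2e (95.1 FPKM), followed by Eed (77.5 FPKM), Kdm2b (75.98 FPKM) and Pcgf5 (60.4 FPKM). From Kdm6b to Pcgf5 in this order, the library ranges of neighbours overlapped throughout. The lowest means after Cbx2 were those of Ring1 (1.23 FPKM), Phf19 (1.56 FPKM), Phc1 (1.64 FPKM) and Pcgf6 (1.99 FPKM), and the ranges of neighbours in this order overlapped. The median of the members' means was 13.8 FPKM, against 7.65 FPKM for all genes tested.

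**Figure D2:**
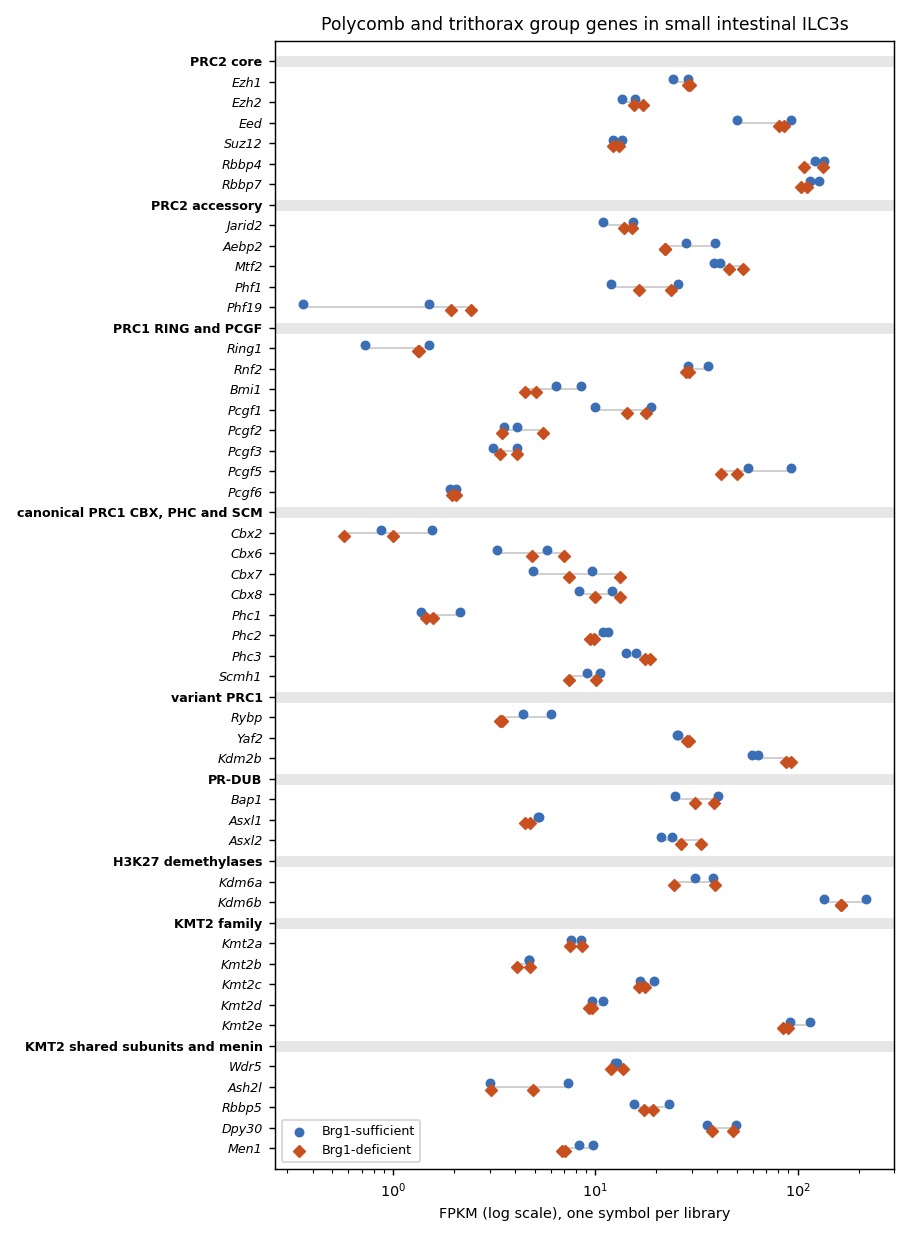
FPKM (x axis, log scale) of the 45 genes, ordered by complex on the y axis, with circles for the 2 Brg1-sufficient and diamonds for the 2 Brg1-deficient libraries and a line over the range. Differences between genes, from 1 FPKM for Cbx2 to 170.2 FPKM for Kdm6b, are far wider than those between the groups.

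Of the 6 core genes of PRC2, 5 overlapped between the groups and 1, Rbbp7, was lower without overlap. Ezh1, the methyltransferase associated with resting cells, was at 24.1 and 28.8 FPKM with Brg1 and at 29.3 and 28.6 FPKM without it (log2 fold change 0.13, 95% interval -0.28 to 0.53, adjusted p = 0.776 by limma). Ezh2, the methyltransferase associated with dividing cells, was at 15.6 and 13.6 FPKM with Brg1 and at 17.2 and 15.6 FPKM without it (log2 fold change 0.16, 95% interval -0.27 to 0.58, adjusted p = 0.731 by limma). The groups overlapped for both enzymes. Suz12, which scaffolds the complex, ranged from 12.2 to 13.6 FPKM and its log2 fold change was -0.017 (95% interval -0.44 to 0.40), the smallest difference of the 6 core genes. Eed, the subunit that binds methylated H3K27, was at 93.1 and 50.4 FPKM with Brg1 and at 80.6 and 86.03 FPKM without it, so the Brg1-sufficient libraries lay on either side of both Brg1-deficient libraries. Rbbp4 and Rbbp7 encode histone-binding subunits that PRC2 shares with other chromatin complexes. Rbbp4 ranged from 107 to 135 FPKM, and the groups overlapped. Rbbp7 was at 128 and 115 FPKM with Brg1 and at 111 and 104 FPKM without it, lower without overlap but with a log2 fold change of only -0.18 (adjusted p = 0.631 by limma). Over the 6 core genes 0 passed an unadjusted p of 0.05, and the median log2 fold change was 0.056.

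The accessory subunits, which decide where PRC2 binds, held the lower of the 2 members at an unadjusted p under 0.05. Aebp2, a zinc finger protein of the form of PRC2 that also holds Jarid2, was at 39.1 and 28.2 FPKM with Brg1 and at 22.2 and 21.99 FPKM without it. Both Brg1-deficient libraries were below both others, and the Brg1-deficient pair lay closer together than the Brg1-sufficient pair. The mean went from 33.6 ± 7.72 to 22.1 ± 0.134 FPKM (SD, n = 2 each), to 65.6% of the Brg1-sufficient level (log2 fold change -0.57, standard error 0.20, 95% interval -1.07 to -0.067, adjusted p = 0.343 by limma, unadjusted p = 0.0327). Without Brg1-sufficient library 1 the log2 fold change was -0.34 and the unadjusted p 0.0595. Without Brg1-deficient library 1 or 2 the unadjusted p was 0.171 or 0.174, and without the variance trend in limma it was 0.0623. Jarid2, the partner of Aebp2 in that form, ranged from 10.9 to 15.3 FPKM, and its groups overlapped (log2 fold change 0.15).

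Mtf2, Phf1 and Phf19 are the Polycomb-like proteins, which bring PRC2 to CpG-rich DNA in the complexes without Aebp2 and Jarid2. Mtf2 was at 41.2 and 38.5 FPKM with Brg1 and at 53.4 and 45.8 FPKM without it (log2 fold change 0.31, standard error 0.15, 95% interval -0.077 to 0.69, adjusted p = 0.493 by limma). Phf19 (chromosome 2 from 34893757 to 34914026 on GRCm38) was at 1.5 and 0.36 FPKM with Brg1 and at 2.44 and 1.94 FPKM without it (log2 fold change 0.79, standard error 0.40, 95% interval -0.23 to 1.80, adjusted p = 0.507 by limma). Both were higher without overlap. Brg1-sufficient library 2 was the one value of Phf19 below 1 FPKM, and without that library the log2 fold change was 0.35. Without Brg1-sufficient library 1 it was 1.23 (unadjusted p = 0.0164 by limma), and with a pseudocount of 0.1 in place of 1 it was 1.41. Phf1 was at 11.9 and 25.6 FPKM with Brg1 and at 23.6 and 16.4 FPKM without it, and the groups overlapped. Exons of Phf1 overlap those of Cuta and AC144621.3 over 39.3% of their bases in all, and Cuta lay between 81.9 and 95.2 FPKM, so reads of these neighbours may not be told apart.

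Among the catalytic and core subunits of PRC1, the RING and PCGF proteins, the lower genes were Bmi1 and Pcgf5. Rnf2 (RING1B), the main H2A ubiquitin ligase, was at 36.03 and 28.6 FPKM with Brg1 and at 28.1 and 29.1 FPKM without it (log2 fold change -0.16, 95% interval -0.59 to 0.27, adjusted p = 0.733 by limma). Its paralog Ring1 was at 0.73 and 1.5 FPKM with Brg1 and at 1.34 and 1.33 FPKM without it (log2 fold change 0.17, 95% interval -0.72 to 1.05, adjusted p = 0.872 by limma). The groups overlapped for both ligases. Bmi1 (PCGF4), the PCGF protein of canonical PRC1 known for sustaining self-renewal of blood stem cells (chromosome 2 from 18677018 to 18686629 on GRCm38), was at 8.52 and 6.42 FPKM with Brg1 and at 5.06 and 4.49 FPKM without it. Without Brg1 the mean was 63.9% of that with Brg1 (log2 fold change -0.54, standard error 0.22, 95% interval -1.10 to 0.011, adjusted p = 0.407 by limma, unadjusted p = 0.0533). Pcgf5, of a variant PRC1 (chromosome 19 from 36348309 to 36460970), was at 92.9 and 56.6 FPKM with Brg1 and at 50.1 and 42 FPKM without it, or 61.6% of the mean with Brg1 (log2 fold change -0.65, standard error 0.26, 95% interval -1.31 to 0.013, adjusted p = 0.407 by limma, unadjusted p = 0.0531).

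Both Pcgf5 and Bmi1 were lower without overlap and lay above the unadjusted threshold of 0.05. Pcgf5 was much higher in Brg1-sufficient library 1 than in library 2, and its log2 fold change was -0.30 without library 1 and -1.002 without library 2. For Bmi1 the same omissions gave -0.36 and -0.72. The sequence of Bmi1 is shared in part with a pseudogene, Gm5946, which lay at 0 to 0.2 FPKM. The other PCGF genes overlapped between the groups. Pcgf2 (MEL18), the close paralog of Bmi1, ranged from 3.46 to 5.52 FPKM, Pcgf3 from 3.1 to 4.09 FPKM, Pcgf6 from 1.91 to 2.05 FPKM and Pcgf1 from 9.94 to 18.8 FPKM. Their log2 fold changes lay between 0.015 and 0.21.

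Canonical PRC1 adds a chromobox (CBX) protein that binds methylated H3K27 and a Polyhomeotic (PHC) protein that clusters the complexes. None of these 8 genes passed an unadjusted p of 0.05 in limma, and 6 overlapped between the groups. Among the chromobox genes Cbx8 ranged from 8.26 to 13.2 FPKM, Cbx7 from 4.91 to 13.2 FPKM, Cbx6 from 3.28 to 7.02 FPKM and Cbx2 from 0.57 to 1.56 FPKM. Cbx7 was at 4.91 and 9.66 FPKM with Brg1 and at 13.2 and 7.42 FPKM without it, so its replicates differed more than its groups (log2 fold change 0.46, 95% interval -0.51 to 1.43). Phc2 was at 11.6 and 10.9 FPKM with Brg1 and at 9.79 and 9.38 FPKM without it, lower without overlap (log2 fold change -0.21, adjusted p = 0.6399 by limma). Phc3 was at 14.1 and 15.9 FPKM with Brg1 and at 18.6 and 17.6 FPKM without it, higher without overlap (log2 fold change 0.26, adjusted p = 0.588 by limma). Phc1 ranged from 1.38 to 2.15 FPKM and the SCM gene Scmh1 from 7.41 to 10.6 FPKM, with overlapping groups.

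Variant PRC1 complexes replace the chromobox protein with RYBP or YAF2, and the form with PCGF1 also holds KDM2B. KDM2B is a histone demethylase whose zinc finger CxxC domain binds unmethylated CpG. Kdm2b was at 59.6 and 64.01 FPKM with Brg1 and at 92.5 and 87.8 FPKM without it. It was the member with the lowest p, the libraries of each group lay close together, and the groups were well apart. The mean went from 61.8 ± 3.097 to 90.1 ± 3.32 FPKM (SD, n = 2 each), to 146% of the Brg1-sufficient level (log2 fold change 0.54, standard error 0.13, 95% interval 0.20 to 0.88, adjusted p = 0.205 by limma, unadjusted p = 0.00886). Omitting any one library left a log2 fold change of 0.49 to 0.59 and an unadjusted p of 0.0161 to 0.0481. The adjusted p was 0.584 without Brg1-deficient library 1 and 0.559 without library 2, beyond the 0.4 of the list criteria.

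Kdm2b overlaps neighbours whose reads may not be told apart from its own. Of its 50-base stretches 12.5% also occur in other genes, chiefly in Rnf34, which lay at 14.1 and 14.8 FPKM with Brg1 and 16.8 and 14.6 FPKM without it. A930024E05Rik, which also overlaps it, was at 3.65 and 4.51 against 5.3 and 6.42 FPKM. Both neighbours were at lower levels than Kdm2b in every library. Rybp was at 6.04 and 4.38 FPKM with Brg1 and at 3.46 and 3.36 FPKM without it, lower without overlap (log2 fold change -0.48, standard error 0.24, 95% interval -1.08 to 0.12, adjusted p = 0.489 by limma). Without Brg1-sufficient library 1 its log2 fold change was -0.29. Yaf2 was at 25.3 and 25.6 FPKM with Brg1 and at 29.2 and 28.5 FPKM without it, higher without overlap (log2 fold change 0.17, adjusted p = 0.644 by limma). The Rybp and Yaf2 genes, which encode alternative subunits of the same position, thus lay on opposite sides of 0.

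Promoters are shown for Kdm2b and Aebp2, the members at an unadjusted p under 0.05. Each window runs from 250 bases before to 50 bases after a RefSeq start on GRCm38.p6, is written 5′ to 3′ on the gene's strand, and has each CG pair in capitals, the pair that the CxxC domain of KDM2B reads. Kdm2b (chromosome 5 from 122870665 to 122989823, minus strand) has an upstream start and an internal start. The upstream window, chr5:122989050-122989349, holds 28 CG pairs, and the internal window, chr5:122900301-122900600, holds 49. The Aebp2 gene (chromosome 6 from 140622663 to 140678472, plus strand) has 3 such windows, of which the one with the most CG pairs, chr6:140624659-140624958, holds 21. The values measured here are per gene and do not separate transcripts from these starts.
Kdm2b upstream start: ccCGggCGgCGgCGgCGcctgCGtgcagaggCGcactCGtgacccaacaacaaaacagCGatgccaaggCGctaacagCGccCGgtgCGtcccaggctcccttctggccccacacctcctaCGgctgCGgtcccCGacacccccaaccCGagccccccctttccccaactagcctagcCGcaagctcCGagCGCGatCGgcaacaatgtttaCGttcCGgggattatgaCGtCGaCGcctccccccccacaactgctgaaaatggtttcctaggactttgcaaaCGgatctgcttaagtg
Kdm2b internal start: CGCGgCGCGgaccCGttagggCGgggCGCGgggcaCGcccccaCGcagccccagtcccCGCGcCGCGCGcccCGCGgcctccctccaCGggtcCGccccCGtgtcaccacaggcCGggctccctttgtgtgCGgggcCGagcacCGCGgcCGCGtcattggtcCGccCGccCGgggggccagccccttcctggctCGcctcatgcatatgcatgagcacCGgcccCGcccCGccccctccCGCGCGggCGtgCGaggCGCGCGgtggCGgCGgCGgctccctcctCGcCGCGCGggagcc
Aebp2 start: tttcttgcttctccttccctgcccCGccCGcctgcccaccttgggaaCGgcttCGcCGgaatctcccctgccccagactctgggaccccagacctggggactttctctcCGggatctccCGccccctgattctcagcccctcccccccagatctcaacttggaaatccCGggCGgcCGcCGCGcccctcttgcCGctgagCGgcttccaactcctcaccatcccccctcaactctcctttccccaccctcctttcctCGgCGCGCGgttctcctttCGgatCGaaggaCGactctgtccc

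Read against other genes, the internal Kdm2b window held at least as many CG pairs as 98.1% of the genes tested that have a RefSeq window, and the Aebp2 window as many as 49.2%. A window was found for 37 of 45 members and for 9166 of the genes tested, counting the window richest in CG for each gene. The CG pair, which reads the same on both strands, occurred a median of 30 times in the members' windows (range 9 to 56), beside 22 in the genes tested and 8 in all 27025 genes with a window. At least 10 pairs were found in 36 of 37 members (97.3%), 84.0% of the genes tested and 45.8% of all genes with a window. Yaf2, Kmt2e, Rybp, Kdm6b, Cbx2, Pcgf1, Kmt2b and Ash2l had no window in the table used.

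The Polycomb deubiquitinase, which removes ubiquitin from H2A, showed opposite small differences in its alternative ASXL subunits. Bap1, the catalytic subunit, was at 24.7 and 40.6 FPKM with Brg1 and at 38.5 and 31.01 FPKM without it (log2 fold change 0.12, 95% interval -0.55 to 0.80, adjusted p = 0.878 by limma), with overlapping groups. Asxl1 was at 5.19 and 5.29 FPKM with Brg1 and at 4.47 and 4.73 FPKM without it, lower without overlap (log2 fold change -0.16, adjusted p = 0.777 by limma). Asxl2 was at 21.2 and 24.04 FPKM with Brg1 and at 26.5 and 33.2 FPKM without it, higher without overlap (log2 fold change 0.38, standard error 0.18, 95% interval -0.072 to 0.83, adjusted p = 0.472 by limma). None of the 3 genes passed an unadjusted p of 0.05 in limma.

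The demethylases that remove methyl groups from H3K27 were expressed at overlapping levels. Kdm6b (JMJD3), the inducible demethylase and the gene with the highest mean of the 45, was at 218 and 135 FPKM with Brg1 and at 163 and 165 FPKM without it (log2 fold change -0.064, 95% interval -0.68 to 0.55, adjusted p = 0.933 by limma). The Brg1-sufficient libraries lay on either side of the closely matched Brg1-deficient libraries. Kdm6a (UTX), an X-linked demethylase and KMT2C and KMT2D partner, was at 38.2 and 31.2 FPKM with Brg1 and at 39.2 and 24.4 FPKM without it (log2 fold change -0.15, 95% interval -0.81 to 0.50, adjusted p = 0.839 by limma). Here the Brg1-deficient libraries lay on either side of the Brg1-sufficient libraries.

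The KMT2 family genes of the trithorax group had log2 fold changes from -0.25 to 0.0066, with 0 of 5 past an unadjusted p of 0.05 in limma. Kmt2a (MLL1), known for maintaining Hox genes in blood progenitors, was at 7.54 and 8.51 FPKM with Brg1 and at 7.52 and 8.62 FPKM without it (log2 fold change 0.0066, 95% interval -0.46 to 0.48). Kmt2b (MLL2), its paralog, was at 4.71 and 4.71 FPKM with Brg1 and at 4.11 and 4.74 FPKM without it (log2 fold change -0.076, 95% interval -0.60 to 0.44). Neither gene differed beyond its replicate spread. Kmt2c (MLL3) and Kmt2d (MLL4) encode the methyltransferases that act at enhancers. Kmt2c was at 19.6 and 16.6 FPKM with Brg1 and at 16.4 and 17.6 FPKM without it (log2 fold change -0.082, 95% interval -0.50 to 0.34). Kmt2d was at 9.65 and 10.96 FPKM with Brg1 and at 9.34 and 9.67 FPKM without it (log2 fold change -0.10, 95% interval -0.54 to 0.33). The intervals of Kmt2a, Kmt2b, Kmt2c and Kmt2d all lay within a 2-fold change. Kmt2e (MLL5), a divergent relative with a SET domain, was at 115 and 91.9 FPKM with Brg1 and at 84.1 and 89.2 FPKM without it, lower without overlap (log2 fold change -0.25, 95% interval -0.66 to 0.16, adjusted p = 0.603 by limma).

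The subunits that all the main KMT2 complexes share, WDR5, ASH2L, RBBP5 and DPY30, had overlapping groups. Wdr5 ranged from 12.01 to 13.6 FPKM (log2 fold change 0.014), Rbbp5 from 15.6 to 23.1 FPKM (log2 fold change -0.053) and Dpy30 from 35.7 to 49.8 FPKM (log2 fold change 0.017). Ash2l ranged from 3.02 to 7.36 FPKM, with Brg1-sufficient libraries at 7.36 and 3.02 FPKM, so that its interval reached past a 2-fold change (log2 fold change -0.25, 95% interval -1.29 to 0.80). Men1, encoding menin, which tethers KMT2A and KMT2B to chromatin, was at 9.68 and 8.3 FPKM with Brg1 and at 6.82 and 7.08 FPKM without it, lower without overlap (log2 fold change -0.33, standard error 0.18, 95% interval -0.79 to 0.14, adjusted p = 0.541 by limma).

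Set against the spread between replicates, the group difference exceeded the larger gap between 2 libraries of one group in 12 of 45 members (26.7%), beside 32.0% of all genes tested. Kdm2b exceeded its gap by the most, with a difference of 0.54 against a larger gap of 0.10 on the log2 scale, and Yaf2 had a difference of 0.17 against 0.032. Nearer to their gaps were Aebp2 (0.57 against 0.46) and Bmi1 (0.54 against 0.36). Pcgf5 and Phf19 had the widest differences, 0.65 and 0.79 in size, but replicate gaps of 0.71 and 0.88. Phf1 and Ash2l had the widest gaps, 1.04 and 1.06, beside differences of 0.16 and 0.25 in size. The median gap of the members was 0.31 between the Brg1-sufficient libraries and 0.13 between the Brg1-deficient libraries, and it was wider in the Brg1-sufficient pair for 34 of 45 genes. Over all genes tested the median gaps were 0.30 and 0.20, and the Brg1-sufficient gap was the wider for 8981 of 14739 genes.

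**Figure D3:**
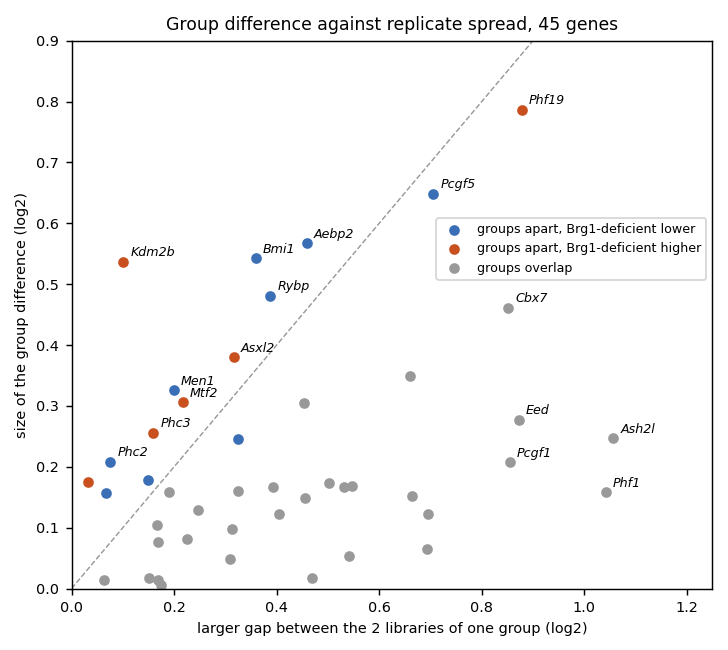
Size of the group difference (y axis, log2) against the larger gap between the 2 libraries of one group (x axis, log2) for the 45 genes, coloured by whether the groups lay apart, with a dashed line of equality. The 12 genes above the line include Kdm2b (0.54 against 0.10), while Pcgf5 and Phf19 lie below it.

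Of the 9 members lower without overlap, 8 (88.9%) were higher in Brg1-sufficient library 1 than in Brg1-sufficient library 2, Asxl1 being the exception. Over the 2984 genes that were lower without overlap this held for 60.6%. The T cell and ILC2 lists were also higher in Brg1-sufficient library 1 than in library 2 (105 against 56.4 and 314 against 199 summed FPKM) and lower again in the Brg1-deficient libraries. The other lists named for other cells were lower in library 1 than in library 2. These were ILC1 and NK cell (186 against 358), myeloid (104 against 234), stromal (71.7 against 99.2), epithelial (4.97 against 6.77) and B cell (9.94 against 10.9). Areg and Hpgds of the ILC2 list were also lower in library 1. The largest values in the T cell and ILC2 sums were those of Cd4 (43.6 and 32.8 against 25.2 and 19.8 FPKM) and Gata3 (183 and 110 against 74.5 and 105 FPKM). The study states that Rag1-/- mice, as both donors were, lack T and B cells. The T cell list is therefore given as levels of genes, and whether T cells were present was not tested. The part of other cells in the lower members was not tested. Fewer cells of a type and less RNA per cell cannot be told apart in bulk libraries. The 12 pairs of related subunits described next compare 2 genes within each library, so that a scaling of the whole library nearly cancels.

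Of 12 pairs of related subunits, 11 had the same partner higher in all 4 libraries. The exception was Rbbp7 against Rbbp4. Ratios were taken on FPKM + 1 in each library. Ezh1 exceeded Ezh2 by 1.51-fold to 2.05-fold, Rnf2 exceeded Ring1 by 11.8-fold to 21.4-fold, and Kdm6b exceeded Kdm6a by 4.09-fold to 6.52-fold. Kmt2c exceeded Kmt2d by 1.47-fold to 1.93-fold, and Pcgf5 exceeded Pcgf3 by 8.45-fold to 22.9-fold. The groups overlapped for these 5 ratios. Between the groups the Ezh2 to Ezh1 ratio differed by 0.030 and the Kmt2d to Kmt2c ratio by -0.022 on the log2 scale.

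The log2 ratio lay apart between the groups for the other 6 pairs. Each was lower in the Brg1-deficient libraries, a direction that depends on which gene is put first. For Rybp to Yaf2, Asxl1 to Asxl2 and Phc2 to Phc3 this was fixed by the single genes. In these 3 pairs the first gene was lower and the second higher without overlap, as given above. The share of other gene pairs that lie apart was not computed, so 6 of 12 is not read as a result about these pairs. Of the single genes tested, 20.2% were lower and 24.4% higher without overlap. For Rybp to Yaf2 the log2 ratio was -1.90 and -2.30 in the Brg1-sufficient libraries and -2.76 in both Brg1-deficient libraries, a difference of -0.66. For Asxl1 to Asxl2 it was -1.84 and -1.99 against -2.33 and -2.58, a difference of -0.54. For Phc2 to Phc3 it was -0.27 and -0.50 against -0.86 and -0.85, a difference of -0.46. The differences of these 3 ratios exceeded the gap between the libraries of either group. For Cbx2 to Cbx7 the difference was -0.77 and for Mtf2 to Phf19 it was -0.48, and both rest on a gene near 1 FPKM and moved to -1.08 and -1.10 with a pseudocount of 0.1. Without Brg1-sufficient library 2 the Mtf2 to Phf19 difference was -0.088, and without Brg1-sufficient library 1 it was -0.87. Omitting any one library left differences of -0.86 to -0.46 for Rybp to Yaf2, -0.66 to -0.41 for Asxl1 to Asxl2, -0.58 to -0.35 for Phc2 to Phc3 and -0.97 to -0.56 for Cbx2 to Cbx7. For Kmt2b to Kmt2a the difference was -0.083, and the nearest libraries of the groups both lay at -0.74. The smallest p of an exact permutation test on such a ratio is 0.33.

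**Figure D4:**
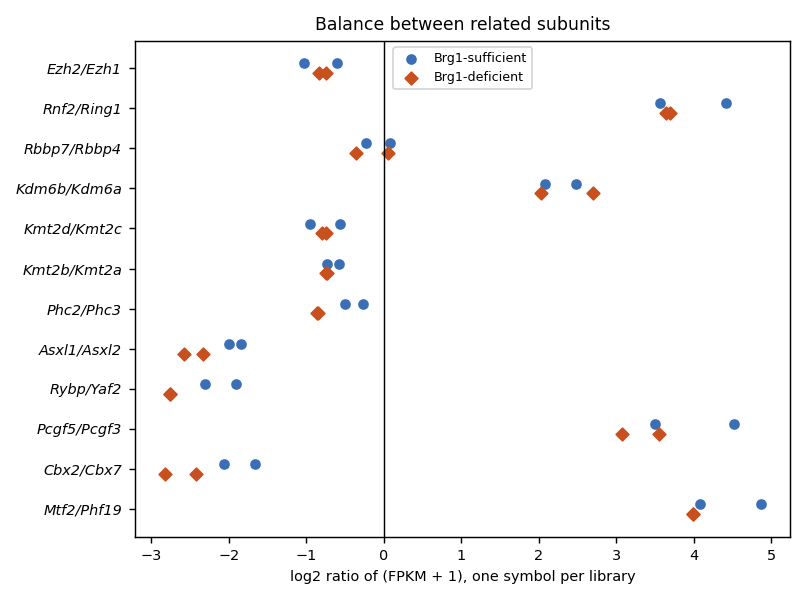
Log2 ratio of (FPKM + 1) of 2 related genes (x axis) for 12 pairs (y axis), with circles for the 2 Brg1-sufficient and diamonds for the 2 Brg1-deficient libraries. For Rybp to Yaf2 the Brg1-deficient libraries lie at -2.76 and the Brg1-sufficient libraries at -1.90 and -2.30, whereas for Ezh2 to Ezh1 the groups overlap.

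Of 9 further PRC1 partners, 10 further COMPASS subunits, 5 H3K4 demethylases and 9 H2A deubiquitinases and partners of BAP1, all were tested and 0 passed an unadjusted p of 0.05 in limma. Their median log2 fold changes were -0.14, 0.083, 0.068 and 0.20. Without overlap, 2 of the PRC1 partners were lower and 2 higher, 1 of the COMPASS subunits was lower and 1 higher, and of the other two lists 2 and 4 were higher and 0 lower. Over all genes tested 20.2% were lower and 24.4% higher without overlap.

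Of 39 Hox genes, which Polycomb complexes are known to silence, 36 had a mean at or below 1 FPKM in both groups, and none of those 36 exceeded 0.78 FPKM in any library. The 3 tested, Hoxa3, Hoxa5 and Hoxa7, had log2 fold changes of 0.20, -0.39 and 0.13, with 0 at an unadjusted p under 0.05 in limma. Hoxa7 was the most abundant, at 8.38 and 9.75 FPKM with Brg1 and 7.95 and 12.6 FPKM without it. Of 15 other classical targets 2 were tested, Cdkn2b and Meis1, and neither passed. Cdkn2a, the cell cycle inhibitor locus that Bmi1 and Ezh2 are known to restrain, was listed at 0 and 0.1 FPKM with Brg1 and at 0 in both libraries without it. These 6 genes are named for their place in the lists and were chosen after their values were seen.

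Of 9 lymphocyte genes known to carry Polycomb marks in other lineages, 8 were tested. At an unadjusted p under 0.05 in limma 3 were lower and 0 higher, beside 6.47% and 6.12% of all genes tested. Tbx21, the type 1 lineage factor, was at 4.21 and 6.04 FPKM with Brg1 and at 1.28 and 0.9 FPKM without it (log2 fold change -1.54, adjusted p = 0.119 by limma). For Ifng the log2 fold change was -2.80 (adjusted p = 0.0386 by limma), and for Il4 it was -2.92 (adjusted p = 0.0917 by limma). The median of the 8 was -0.67. This list was drawn up with earlier results of these data known, so its median and count are not set against those of the members. The ILC2 and T cell lists, lower in the Brg1-deficient libraries as given above, moved with Il4, and 5 of 8 tested genes of the ILC1 and NK cell list, Tbx21 and Ifng among them, were lower as well. By the study's account NKp46+ ILC3s, a subset of ILC3s, express T-bet and interferon gamma. It reports a smaller share of them without Brg1 in mixed bone marrow chimeras. Ncr1, which encodes NKp46, was at 31.3 and 35.5 against 5.37 and 6.02 FPKM, while 1 gene of that list, Gzma, was higher. The list thus does not separate ILC1s and NK cells from this subset, and the part of either was not tested.

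Ezh2 is known to rise with cell division, and its level can be read beside that of dividing cells. Of 18 proliferation genes 17 were tested, 0 passed an unadjusted p of 0.05 in limma, 0 were lower and 7 were higher without overlap (beside 20.2% and 24.4% of all genes tested), and the median log2 fold change was 0.15. Their summed FPKM was 305 and 276 in the Brg1-sufficient libraries and 389 and 305 in the Brg1-deficient libraries. Pcna, the largest part of each sum, was at 156 and 134 against 195 and 160 FPKM. Ezh2 had a log2 fold change of 0.16, and Ezh2, like the sum, was highest in Brg1-deficient library 1 and lowest in Brg1-sufficient library 2.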

How the data were processed

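RNA was sequenced from 2 Brg1-sufficient and 2 Brg1-deficient ILC3 libraries, amplified by PCR from poly(A) RNA. The authors mapped reads with STAR v2.5 to GRCm38.p5, estimated gene levels with RSEM v1.2 (GENCODE M16) and deposited them as FPKM values. Sorted, the 4 libraries hold almost the same FPKM values, as after quantile normalization, so a shift of all genes together would not show. Whether counting used strand is not given in the sources used here, nor is how animals fall to libraries, so p-values measure only the spread between these libraries.

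Members and lists were chosen with earlier results of these data known. Genes with a mean above 1 FPKM in either group were tested on log2(FPKM + 1), which understates changes of low genes, with limma 3.58.1 (lmFit, eBayes with trend, R 4.3.3, two-sided) and Benjamini-Hochberg adjustment over all 14739 genes. Intervals are 95% limits of that fit. Values in every library are given for members with an unadjusted p under 0.05, without overlap and beyond 0.3 on the log2 scale, catalytic, or of the KMT2 family. Others are given by range, except further ones chosen after their values were seen. The script was tested on simulated data. Overlaps between genes used GENCODE M21 and promoters used RefSeq. Alternatives were a pseudocount of 0.1, no filter, a filter at 5 FPKM, no trend, quantile normalization, median centring, the replicate number as a block, and each library left out. The driver of the Cre transgene is not reported here.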

Additional observations from a re-analysis of the deposited data

How the results depend on the processing

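Under every alternative run, 0 of the members tested (45, or 37 above 5 FPKM and 44 without Brg1-sufficient library 2) passed an adjusted p of 0.05 in limma, while the count over all genes ranged from 0 lower and 0 higher (no filter, which still gave 1400 lower and 1308 higher at an unadjusted p under 0.05, or no trend, with 965 and 903, or any library left out, with 507 to 1675 lower and 735 to 1507 higher) to 248 lower and 150 higher (replicate block), with 73 and 41 above 5 FPKM. The counts of lower members at an unadjusted p under 0.05 and by the list criteria, 1 each, became 2 each above 5 FPKM and with the replicate block (Pcgf5 joined Aebp2), 3 each with median centring (Bmi1 too) and 0 each without the trend. At that unadjusted p, 7.47% of all genes tested were lower above 5 FPKM and 7.23% with the replicate block. With median centring 7.01% were lower, and without the trend 6.55%. By the list criteria these shares were 6.76%, 5.29%, 4.49% and 3.79%, in that order. With no filter 0 lower and 0 higher members met the list criteria, since more genes enter the adjustment, and 236 and 161 of all genes did. Kdm2b stayed at an unadjusted p under 0.05 under every alternative.

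Leaving out each library in turn gave 0 to 6 lower and 1 to 3 higher members at an unadjusted p under 0.05, 0 to 4 lower members and 0 to 1 higher meeting the list criteria, 11 to 20 lower and 12 to 18 higher without overlap, where fewer libraries make overlap rarer, and a median log2 fold change from -0.071 to 0.028. The list criteria then took 61 to 671 lower and 38 to 745 higher genes in all, with the lowest counts without Brg1-deficient library 2. The sign turned without Brg1-sufficient library 1 for Ring1 (from -0.099 to 0.43 over the omissions), Rnf2 (-0.32 to 0.00196), Bap1 (-0.22 to 0.47), Kdm6b (-0.41 to 0.28), Kmt2a (-0.081 to 0.094) and Kmt2c (-0.19 to 0.030). It turned without Brg1-deficient library 1 for Bap1 and Kmt2b (-0.16 to 0.0076), without Brg1-deficient library 2 for Kdm6a (-0.48 to 0.18) and Kmt2a, and with median centring for Kmt2a (-0.022). A pseudocount of 0.1 moved the ratio differences of Cbx2 to Cbx7 and Mtf2 to Phf19 to -1.08 and -1.10. The causes were not tested.

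The labels number the libraries 1 and 2 in both groups. Over 14739 genes, the departures of libraries 1 and 2 from their group's mean correlated between the groups at r = -0.00039, so the number is not taken as pairing, and the replicate block above is a check only. It moved the list criteria over all genes to 780 lower and 700 higher, from 644 and 568. With 2 libraries a group and no counts, small differences in genes near 1 FPKM, such as Cbx2, Ring1 and Phf19, are not resolved.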
